A study of Sus scrofa with 20 samples.

Results

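9 genes of hepatic glucose storage and glucose production were followed through 20 libraries of pig biliary tree and liver cells. They were taken by name from a table of 25764 genes, and all 9 had a row and passed the filter on low values that left 15576 genes for testing. PC, PCK1, PCK2 and FBP1 encode enzymes of gluconeogenesis, PPARGC1A a coactivator of their transcription, GYS2 and PYGL the liver enzymes that build and break down glycogen, GCKR a regulator of glucose phosphorylation in the hepatocyte, and SLC2A2 the glucose transporter GLUT2. The genes were chosen with values of these same libraries in view, GCKR because it was among the strongest falls in porcine biliary tree stem cells (pBTSCs), so that comparisons of pBTSCs with liver are given here as descriptions without p-values.

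The liver keeps blood glucose steady between meals. After feeding, glucose enters the hepatocyte through GLUT2, is phosphorylated, and is stored as glycogen. In fasting, glycogen is broken down and new glucose is made from lactate, amino acids and glycerol, with pyruvate carboxylase and phosphoenolpyruvate carboxykinase at the entry of the pathway, fructose-1,6-bisphosphatase further along and glucose-6-phosphatase at its end. Insulin is known to repress PCK1 in hepatocytes, and glucagon to induce PPARGC1A and PCK1.

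The pBTSCs were 5 preparations (S2, S7, S11, S15 and S20) with gallbladder as the labelled tissue. The study describes them as cells of newborn piglets taken from gallbladder, cystic duct and common duct. Its records list S2, S7 and S11 as piglets of an H2B-GFP line, which carries a histone H2B joined to green fluorescent protein at the ACTB locus and expresses it in all tissues, and S15 and S20 as wild-type piglets. The GEO labels do not give that division. The 15 liver libraries were sorted or selected by surface antigens into CD45+ (n = 5), CD45-/EpCAM+ (n = 4), CD45-/EpCAM- (n = 2), CD31+ (n = 2) and CD146+ (n = 2) cells. CD45 marks blood cells, EpCAM epithelium, and CD31 and CD146 endothelium and perivascular cells. No treatment is named for these libraries. The line, age and donor of each liver library are not given in the sources used here. The study selected its biliary tree stem cells as CD45-/EpCAM+. Its methods put immunoselected stem/progenitors for some hours into serum-free Kubota's Medium, which contains insulin, where they formed organoids. Whether each pBTSC library passed through this culture is not stated. The liver libraries were also compared by the numbers in their titles, S3 to S14 against S16 to S23, a division drawn with earlier values of these data in view.

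Of the 20 libraries, 17 had an estimated 21200000 to 77800000 reads. The other 3, S13 (CD45-/EpCAM+), S15 (pBTSCs) and S22 (CD146+), had 455000 to 1570000. Among the 9 genes only PPARGC1A changed a call without these 3, in comparisons of pBTSCs with CD45-/EpCAM+, CD31+ and CD146+ cells. The genes of the sorted antigens followed the labels only in part. PTPRC, which encodes CD45, lay between 424 and 2687 normalized counts in the CD45+ libraries and between 450 and 3027 in the other liver libraries. PECAM1, which encodes CD31, was at 20102 to 25291 in CD31+ cells and at 4803 to 28778 in other liver libraries. EPCAM was lower in CD45-/EpCAM- cells, at 491 and 1090, than in CD45-/EpCAM+ cells, at 1205 to 1779, but reached 2232 in CD45+ cells. MCAM, which encodes CD146, was at 4615 and 5227 in CD146+ cells and at 1131 to 4751 elsewhere in liver. ALB, the hepatocyte product albumin, lay between 513080 and 1790000 normalized counts over the liver libraries of every sort and between 287 and 25087 in pBTSCs, and between CD45-/EpCAM+ and CD45+ cells limma called 0 of 15576 genes, with 155 at an unadjusted p under 0.05. In bulk RNA, fewer cells of a type and less RNA per cell cannot be told apart.

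All 9 genes had lower medians in pBTSCs than in liver, and for 8 of them no pBTSC library reached the lowest liver library. Over all genes tested that share was 9.21%, and nothing is read from it, since the contrast chose the genes. The exception was PPARGC1A. By the ratio of the liver median to the pBTSC median the difference was largest for GYS2, PCK1 and GCKR, and by the ratio of the lowest liver library to the highest pBTSC library for GYS2, GCKR and PCK2. PYGL and PPARGC1A were last by both. Without the 3 libraries under 2000000 reads the latter ratio was 41.7 for GYS2, 12.9 for PCK2, 7.31 for PC and 5.94 for FBP1, it did not change for GCKR, PCK1, SLC2A2 and PYGL, and PPARGC1A still overlapped. Levels are normalized counts as deposited, without gene lengths, so they are compared between libraries and not between genes.

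**Figure D1:**
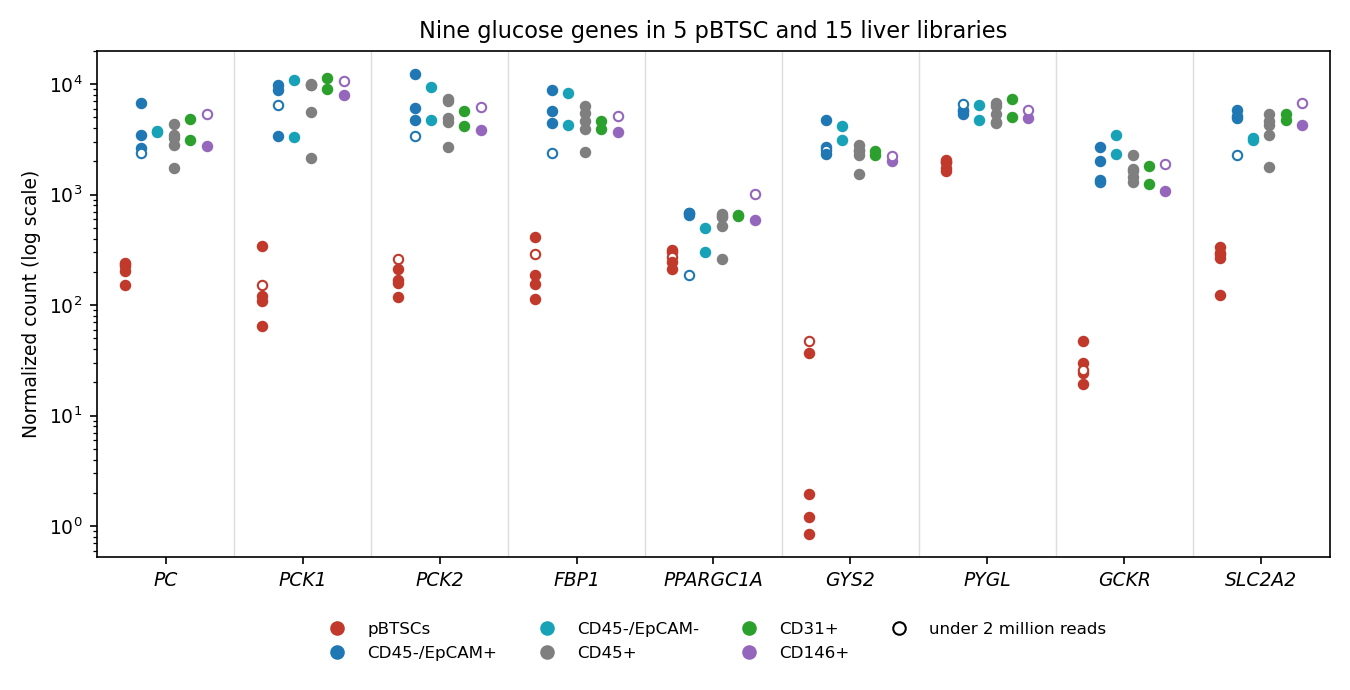
Normalized counts (log scale) of the 9 genes, 1 point per library, coloured by group, with open points for the 3 libraries under 2000000 reads. The 5 pBTSC libraries lie below all 15 liver libraries for 8 genes, and for PPARGC1A they overlap liver libraries at 186, 259 and 300.3.

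PC, pyruvate carboxylase, makes the oxaloacetate from which gluconeogenesis starts. Its normalized counts were 224 in S2, 203 in S7, 152 in S11, 239 in S15 and 236 in S20. In liver PC ran from 1727 to 6759; its liver median of 3483 was 15.5 times the pBTSC median. The groups did not overlap, and the 5 pBTSC libraries differed little among themselves.

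PCK1 and PCK2 encode the cytosolic and the mitochondrial phosphoenolpyruvate carboxykinase, which turn oxaloacetate into phosphoenolpyruvate. PCK1 stood at 64.7 in S2, 120 in S7, 109 in S11, 151 in S15 and 345 in S20, against 2164 to 11416 in liver with a median of 9078. PCK2 stood at 169 in S2, 157 in S7, 119 in S11, 259 in S15 and 210.4 in S20, against 2720 to 12432 in liver with a median of 4920. The ratio of medians was 75.8 for PCK1 and 29.0 for PCK2, and neither gene overlapped between the tissues.

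FBP1, the liver fructose-1,6-bisphosphatase, removes a phosphate late in the pathway. Its level was 188 in S2, 113 in S7, 154 in S11, 291 in S15 and 412 in S20, against 2358 to 8835 in liver with a median of 4605. The 2 wild-type preparations, S15 and S20, held the highest pBTSC values of FBP1, as they did for PCK1 and PCK2. The ratio of medians was 24.4, and the lowest liver library stood 5.72 times above the highest pBTSC library.

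PPARGC1A, the coactivator PGC-1alpha, raises transcription of PCK1 and of glucose-6-phosphatase in fasting liver. It was at 304 in S2, 214 in S7, 313 in S11, 273 in S15 and 244 in S20, against 186 to 1006 in liver with a median of 643. The 3 liver libraries inside or below the pBTSC range were S12, S13 and S14, and 12 of the 15 liver libraries lay above every pBTSC library. PPARGC1A stood in pBTSCs at 33.2 to 48.7% of the liver median, whereas the 4 enzyme genes of gluconeogenesis stood at 0.713 to 8.95%.

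GYS2 encodes the liver form of glycogen synthase. It was at 0.853 normalized counts in S2, 1.19 in S7, 1.96 in S11, 47.3 in S15 and 37.0 in S20, against 1541 to 4759 in liver with a median of 2483. The 3 H2B-GFP preparations held an estimated 3.76, 4.62 and 3.07 reads of this gene, which is just above the floor of 3 reads. S15 held 3.76 reads and S20 held 77.1. The lowest liver library stood 32.6 times above the highest pBTSC library.

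PYGL, the liver glycogen phosphorylase, releases glucose units from glycogen. Its level was 1639 in S2, 2051 in S7, 1738 in S11, 1964 in S15 and 1984 in S20, against 4481 to 7358 in liver with a median of 5702. Of the 8 genes without overlap PYGL had the smallest ratio of medians, 2.90, and the tightest spread in both tissues.

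GCKR encodes a protein that restrains the first phosphorylation of glucose in the hepatocyte when glucose is low. It stood at 29.8 in S2, 24.4 in S7, 19.3 in S11, 25.6 in S15 and 47.0 in S20, where the value of S15 corresponds to 2.04 reads and lies under that library's floor of 37.7. In liver GCKR was at 1694, 2282, 1436, 1306 and 1648 in the CD45+ libraries S3, S8, S12, S18 and S23. The CD45-/EpCAM+ libraries S4, S9, S13 and S19 held 2706, 2014, 1293 and 1370, and the CD45-/EpCAM- libraries S5 and S14 held 3482 and 2350. CD31+ cells had 1257 in S16 and 1826 in S21, and CD146+ cells had 1076 in S17 and 1890 in S22. The lowest liver library stood 22.9 times above the highest pBTSC library. Within liver the CD45-/EpCAM- library S5 stood above its neighbours S3 and S4, and S14 above S12 and S13. The order of CD45+ and CD45-/EpCAM+ libraries was not kept, with S3 under S4 and S8 above S9.

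SLC2A2 encodes GLUT2, the low-affinity transporter through which glucose enters and leaves the hepatocyte. Its level was 338 in S2, 125 in S7, 266 in S11, 289 in S15 and 297 in S20, against 1767 to 6784 in liver with a median of 4635. The ratio of medians was 16. SLC2A1, the transporter of most other cells, had no row under that name, so it could not be compared.

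On the log2(normalized count + 1) scale, a gene was called where its difference exceeded 1 in size and limma's adjusted p was under 0.05. By this rule 8 of 9 genes were lower in pBTSCs than in CD45-/EpCAM+ liver cells, where 10.3% of the 15576 genes were called lower and 14.8% higher. The genes were chosen for this contrast, so nothing is read from that count, or from the median and the ranks given below. The log2 fold change was -8.64 (SE 0.78) for GYS2, -5.93 (SE 0.27) for GCKR, -5.61 (SE 0.51) for PCK1 and -5.06 (SE 0.36) for PCK2. For FBP1 it was -4.51 (SE 0.40), for SLC2A2 -4.10 (SE 0.34), for PC -4.06 (SE 0.30) and for PYGL -1.65 (SE 0.15). The median over the 9 genes was -4.51, against 0.08 over all genes tested. Among all genes ordered from the strongest fall, GYS2 held rank 41 and GCKR rank 193.

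The same 8 genes were called lower against CD45-/EpCAM- cells, CD45+ cells and CD31+ cells, where 16.6%, 9.54% and 7.62% of all genes were called lower. These comparisons share the 5 pBTSC libraries and are not independent of each other. GCKR lay at -6.63 (SE 0.34) against CD45-/EpCAM- cells, -5.83 (SE 0.26) against CD45+ cells, -5.71 (SE 0.34) against CD31+ cells and -5.62 (SE 0.34) against CD146+ cells. Against CD146+ cells all 9 genes were called, with 7.75% of all genes called lower. Without S22 the PPARGC1A difference against CD146+ cells went from -1.53 to -1.15 and its call was lost. Against CD45-/EpCAM+ cells PPARGC1A was at -0.86 (SE 0.36) and not called, and without S13 it was at -1.33 and called. Against CD45+ cells it was at -0.94 (SE 0.34), and without S12 it was at -1.19 and called.

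**Figure D2:**
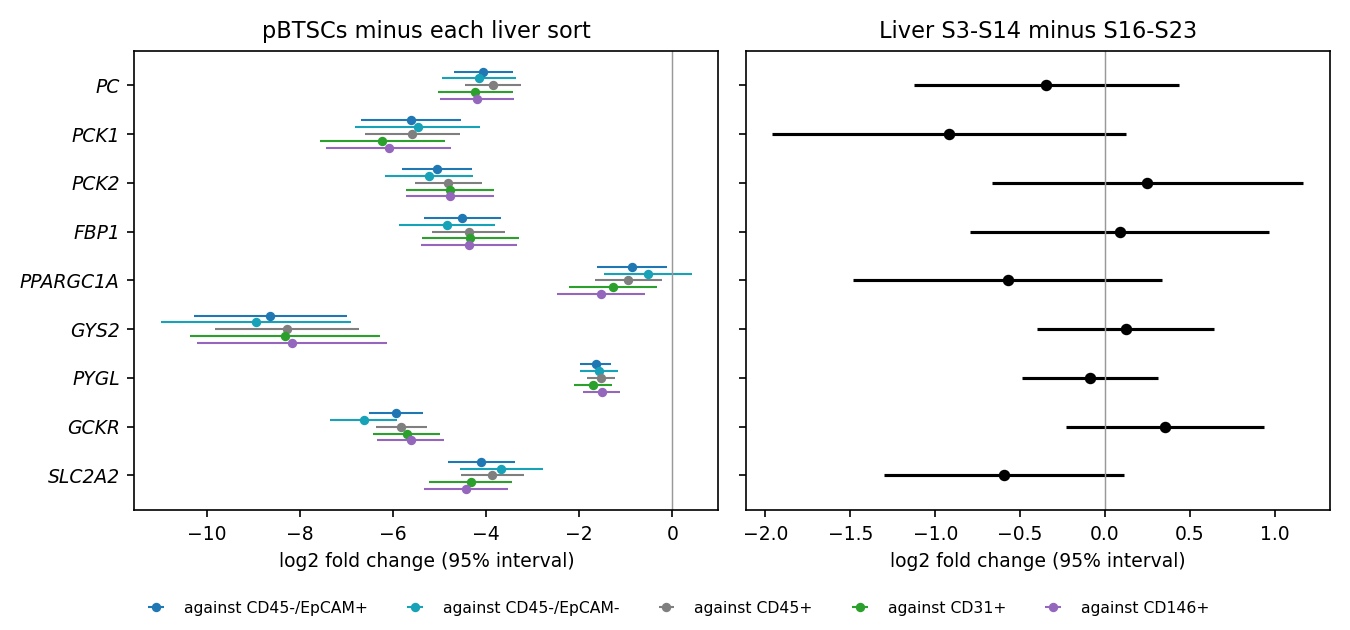
log2 fold changes of the 9 genes with 95% intervals from limma, on the left for pBTSCs minus each of the 5 liver sorts and on the right for liver libraries S3 to S14 minus S16 to S23. On the left 8 genes lie below -1.5 against every sort, with GYS2 between -8.94 and -8.17, and on the right every interval spans 0.

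The pBTSC libraries were not alike in the remainder of hepatocyte transcripts they held. Each level was expressed as a percent of the median of the 15 liver libraries. ALB was at 0.0279% in S2, 0.0213% in S7 and 0.0214% in S11, and at 1.47% in S15 and 1.86% in S20. The median over 9 hepatocyte markers was 0.0734% in S2, 0.0516% in S7 and 0.0516% in S11, and 1.44% in S15 and 2.15% in S20. The 2 wild-type preparations thus lay above the 3 H2B-GFP preparations, with no overlap in these medians.

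GYS2 followed the hepatocyte markers, at 0.0344, 0.0481 and 0.0789% in S2, S7 and S11 and at 1.90 and 1.49% in S15 and S20. G6PC, which encodes the catalytic subunit of glucose-6-phosphatase, did likewise, at 0.0296, 0.0309 and 0.0276% and then at 1.5 and 1.88%. The other 8 members did not fall to that level in the H2B-GFP preparations. GCKR was at 1.76, 1.44 and 1.14% in S2, S7 and S11, and PCK1 at 0.713, 1.32 and 1.20%. PC and SLC2A2 stood at 4.36 to 6.44% and at 2.69 to 7.29% in the same 3 libraries, and PYGL at 28.7 to 36.0%. The line of the piglets comes from the study's records and cannot be told apart there from RNA integrity, which was recorded as lower in S2, S7 and S11 than in S20 and has no value for S15. Nor can it be told apart from the title numbers. S2, S7 and S11 carry lower numbers than S15 and S20, as liver libraries S3 to S14 do against S16 to S23. No test was made, and S15 had under 2000000 reads.

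**Figure D3:**
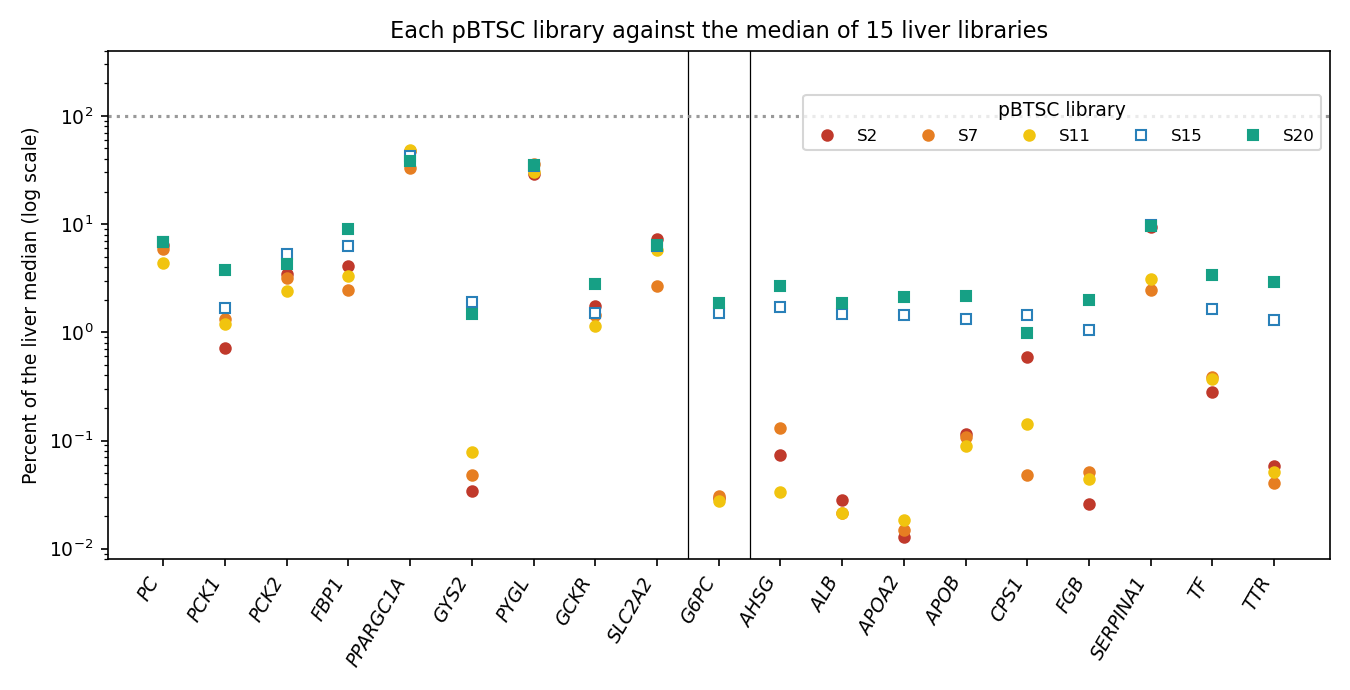
Level in each pBTSC library as a percent of the median of the 15 liver libraries (log scale), for the 9 genes, for G6PC, and for 9 hepatocyte markers; circles are H2B-GFP and squares wild-type preparations, the open square is S15, with under 2000000 reads, and the dotted line is 100%. GYS2, G6PC and most hepatocyte markers split the preparations into values under 0.6% and values near 1 to 3%, whereas PC, PYGL, GCKR and PPARGC1A do not. For GCKR the S15 value lies under that library's floor, and S20 is highest at 2.78%.

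Markers of other cells moved with the same contrast. All 9 hepatocyte markers were called lower in pBTSCs than in CD45-/EpCAM+ cells, with a summed level of 2786 to 51529 in pBTSCs and 1107200 to 2924700 over all liver libraries. Of 8 mesenchymal and stellate cell markers 7 were called higher, with a sum of 445780 to 1690400 against 44803 to 193880, and all 7 macrophage markers were called lower. EPCAM lay at 884 to 2075 in pBTSCs and at 491 to 2232 in liver. Of the 7 cholangiocyte and biliary epithelial markers, EPCAM among them, 2 were called higher and 1 lower. Their sum was 33356 to 77143 in pBTSCs and 5785 to 22901 over all liver libraries. Of 8 endothelial markers 2 were called higher and 3 lower. No hepatocyte or mesenchymal marker was at 0 in any library. The part of cell composition in the difference of the 9 genes was not tested.

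The other genes of the pathway were taken from lists of 14 to 26 genes, chosen with earlier results of these data known. Nothing is read from the counts in these lists. Of all genes tested, 10.3% were called lower against CD45-/EpCAM+ cells and 16.6% against CD45-/EpCAM- cells. The share was 9.54% against CD45+, 7.62% against CD31+ and 7.75% against CD146+ cells. Against CD45-/EpCAM+ cells, 9 of 13 other genes of gluconeogenesis and glucose release were called lower in pBTSCs and 0 higher. G6PC had the largest difference, at -9.23 (SE 1.06), and was at 3591 to 24166 normalized counts in liver and at 2.54 to 173 in pBTSCs. Against CD45-/EpCAM- and CD45+ cells the same count was 9 of 13, against CD31+ cells 5 and against CD146+ cells 6.

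Genes of glycogen turnover and of glycolysis were called in both directions against CD45-/EpCAM+ cells. Of all genes tested, 14.8% were called higher there and 10.3% lower. Of 22 other glycogen genes 3 were called higher and 4 lower. PYGB and PYGM, the brain and muscle forms of glycogen phosphorylase, were higher by 2.30 (SE 0.35) and 1.65 (SE 0.24) on the log2 scale. PGM1 and UGP2, which lead glucose-6-phosphate towards glycogen, were at -1.93 (SE 0.28) and -1.67 (SE 0.30). Of 24 genes of glucose phosphorylation and glycolysis 2 were called higher and 3 lower. PFKP, the platelet form of phosphofructokinase, was higher by 1.90 (SE 0.14), while PFKFB1, the liver form of the bifunctional enzyme that sets fructose-2,6-bisphosphate, and PKLR, the pyruvate kinase of liver and red cells, were at -5.75 (SE 0.55) and -5.25 (SE 0.36). PFKM, the muscle form of phosphofructokinase, was at 1.08 (SE 0.25), and its call was lost without S4 (0.999) or without S13 (0.93), where the difference fell under the threshold of 1.

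Of 11 genes of hexose transport and fructose entry 1 was called higher and 3 lower. SORD, sorbitol dehydrogenase, and TKFC, triokinase, were at -4.33 (SE 0.42) and -2.08 (SE 0.20). SLC5A1, the sodium-coupled glucose transporter, was at 1.05 (SE 0.36), a call that was lost in 6 of 9 fits with 1 library left out, those without S2, S4, S9, S13, S15 or S20, with values from 0.89 to 1.01. Of 26 genes of hormonal and transcriptional control 11 were called lower and 0 higher, led by NR0B2, the nuclear receptor SHP, at -5.71 (SE 0.57) and CREB3L3, a liver-enriched transcription factor, at -5.20 (SE 0.25). In the same list 11 genes were called lower against CD45-/EpCAM- cells, 10 against CD45+ cells and 9 each against CD31+ and CD146+ cells.

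Ratios of isozyme genes within a library are free of library scaling and of gene length as long as they are compared between libraries. The log2 ratio of PYGL to PYGB was 1.74 to 3.16 in pBTSCs and 5.23 to 6.99 in liver, without overlap. That of GYS2 to GYS1, where GYS1 encodes the muscle form of glycogen synthase, was -11.7 to -6.16 in pBTSCs and -2.73 to -0.28 in liver. GYS1 itself was at 2314 to 3375 normalized counts in pBTSCs, where GYS2 was nearly absent in 3 libraries, and at 4196 to 13100 in liver. The log2 ratio of PCK1 to PCK2 was -1.39 to 0.71 in pBTSCs, inside the liver range of -1.86 to 1.21.

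**Figure D4:**
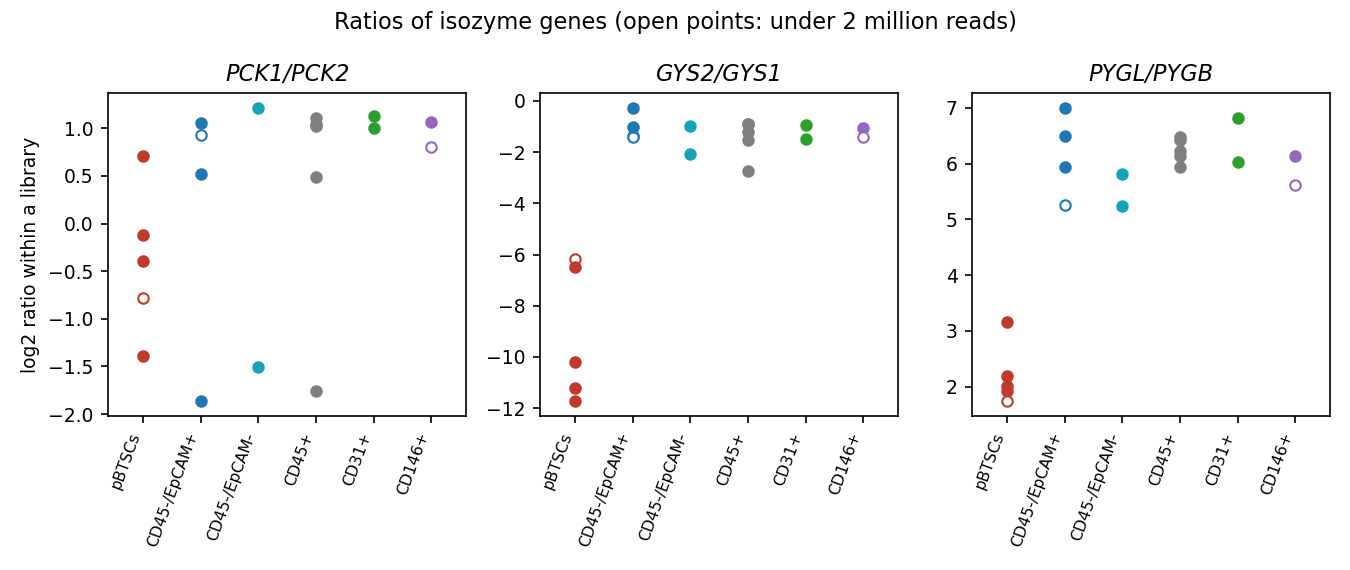
log2 ratio of 2 isozyme genes within each library for the 6 groups, 1 point per library, open where the library had under 2000000 reads; each panel has its own axis. GYS2/GYS1 and PYGL/PYGB separate pBTSCs from all liver libraries, and in PCK1/PCK2 the liver libraries S3, S4 and S5 stand apart from the other 12.

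Within liver, the 9 genes were first compared between S3 to S14 and S16 to S23 in an additive fit with the sort as a term, in which the CD45+ and CD45-/EpCAM+ libraries carry the estimate. None of the 9 was called, where 3.49% of all genes were called, 1.37% higher and 2.12% lower in S3 to S14, and 0 of the 9 had an unadjusted p under 0.05. PCK1 had the largest difference. Its normalized counts were 2164, 9829 and 5545 in CD45+ S3, S8 and S12 and 9747 and 10117 in S18 and S23, and 3418, 8822 and 6529 in CD45-/EpCAM+ S4, S9 and S13 and 9817 in S19. The other sorts ran the same way only in part, with 3316 in S5 and 10963 in S14 against 8012 to 11416 in the 4 CD31+ and CD146+ libraries. The log2 difference was -0.92 (SE 0.48, limma adjusted p = 0.262), and S8 lay above S18.

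SLC2A2 was at -0.60 (SE 0.32, adjusted p = 0.284), PPARGC1A at -0.57 (SE 0.42, adjusted p = 0.435) and GCKR at 0.35 (SE 0.27, adjusted p = 0.458), all by limma. The other 5 lay between -0.35 for PC and 0.25 for PCK2. All 9 intervals included 0, and that of PCK1 ran from -1.96 to 0.13, so differences of 1 log2 unit in PCK1 were not detectable here. Between CD45-/EpCAM+ and CD45+ cells none of the 9 was called and their log2 differences lay between 0.01 and 0.35. Between CD45-/EpCAM- and CD45-/EpCAM+ cells none was called either, at -0.28 to 0.61, where 0.539% of all genes were called. No difference of the range effect between the CD45-/EpCAM+ and CD45+ sorts was called for the 9, at 0.03 to 0.57 on the log2 scale, and limma's interaction term called 0 of 15576 genes, with 78 at an unadjusted p under 0.05. Libraries of neighbouring numbers may come from 1 animal, which would make the p-values of the range comparison too small and those of the sort comparisons too large. In fits chosen after the values were seen, with runs of neighbouring numbers as blocks, limma again called 0 of the 9 in each of these 4 comparisons. Between CD45-/EpCAM- and CD45-/EpCAM+ cells these fits called 444 genes instead of 84, and PCK1 and GCKR had an unadjusted p under 0.05, with adjusted p-values over the 9 from 0.0612 upwards.

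Other genes of the pathway were called between the ranges. The division was drawn with earlier values in view, and libraries of neighbouring numbers may share an animal. The p-values of this comparison may therefore be too small and are given as descriptions. KHK, ketohexokinase, which takes fructose into metabolism, was at 139 to 347 normalized counts in the 8 libraries S3 to S14 and at 801 to 1119 in the 7 libraries S16 to S23. The ranges did not overlap in any sort, and pBTSCs held 139 to 238. The log2 difference was -2.44 (SE 0.26, limma adjusted p = 0.000407). This call held in all 9 fits with 1 library left out. GAPDH, a glycolytic enzyme whose reads may be shared with processed copies, was higher in S3 to S14 by 1.27 (SE 0.19, limma adjusted p = 0.00362), and without S19 its adjusted p was 0.0568.

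The other calls were PGAM1, phosphoglycerate mutase, at 1.06, HK3, the hexokinase of white blood cells, at 1.25, HKDC1, a hexokinase-like enzyme, at 1.93, MDH1 and GOT1, the cytosolic enzymes of the malate-aspartate shuttle, at 1.32 and 1.04, and PPARA, the fasting-response nuclear receptor, at -1.26. PGAM1 and HK3 lie outside the rule for named genes and are named because only 4 genes of their list were called. Each of these 6 calls was lost with 1 library left out in 3 to 7 of 9 fits. Without S19 the limma adjusted p was 0.0669 for PGAM1, 0.279 for HK3, 0.296 for HKDC1, 0.211 for MDH1, 0.196 for GOT1 and 0.104 for PPARA. PGAM1 was also lost without S8 and without S23, where its fold was 0.95 and 0.99. All 5 others were lost without S8, S18 or S23 as well, HK3 and HKDC1 also without S3, S4 or S9, GOT1 also without S3, S4 or S9, MDH1 also without S3 or S9, and PPARA also without S3, S9 or S12.

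S100A8 and S100A9, genes of neutrophils, were higher in S3 to S14 by 3.34 and 3.29. The other 6 of 8 lymphocyte and neutrophil markers were not called, and the median over the 8 was -0.34. Of 7 erythroid markers 5 were called higher, with HBB at 3.01. TTR, 1 of the 9 hepatocyte markers, was at -1.31, and no other hepatocyte marker was called, although ALB was at 513080 to 1348200 in S3 to S14 and 1366700 to 1790000 in S16 to S23. The part of blood cells in the differences of the glucose genes was not tested.

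The title numbers fall into 5 runs of consecutive numbers, S3 to S5, S8 and S9, S12 to S14, S16 to S19 and S21 to S23. Libraries of 1 run differed by a median of 0.111 in absolute log2 value over 12 pairs of deep libraries, with a range of 0.087 to 0.624. Libraries of the same sort but of another run differed by a median of 0.441 over 15 pairs, with a range of 0.186 to 0.528. The widest pair of 1 run thus lay further apart than any pair of the other kind. The SD within runs was smaller than the SD within sorts for 8 of the 9 genes, all but GYS2, and for 72.6% of all genes tested. For PCK1 the SD was 0.30 within runs and 0.82 within sorts on the log2 scale, for PPARGC1A 0.25 and 0.66, and for PCK2 0.27 and 0.63. These runs were noticed after the values were seen and have no label of their own, so they are described without a test.

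In S3, S4 and S5, a CD45+, a CD45-/EpCAM+ and a CD45-/EpCAM- library, PCK1 was at 2164, 3418 and 3316, below each of the other 12 liver libraries, which held 5545 to 11416. PCK2 was high in the same libraries, at 7294, 12432 and 9410, where the other 12 held 2720 to 6996. FBP1 was at 5479, 8835 and 8391, and S8 and S9 of the next run held 6321 and 5703. The log2 ratio of PCK1 to PCK2 was -1.86 to -1.5 in these 3 and 0.49 to 1.21 in the other 12 liver libraries.

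PPARGC1A was lowest in S12, S13 and S14, at 259, 186 and 300.3, and at 494 to 1006 in the other liver libraries. SLC2A2 was low in the same run, at 1767, 2288 and 3260, where S5 of another run held 3113. G6PC was highest in S8 and S9, at 21181 and 24166, against 3591 to 13671 in the other liver libraries. The 4 libraries S16 to S19, 1 each of CD31+, CD146+, CD45+ and CD45-/EpCAM+ cells, lay close together, with PCK1 at 8012 to 9817, FBP1 at 3669 to 4628 and GCKR at 1076 to 1370.

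**Figure D5:**
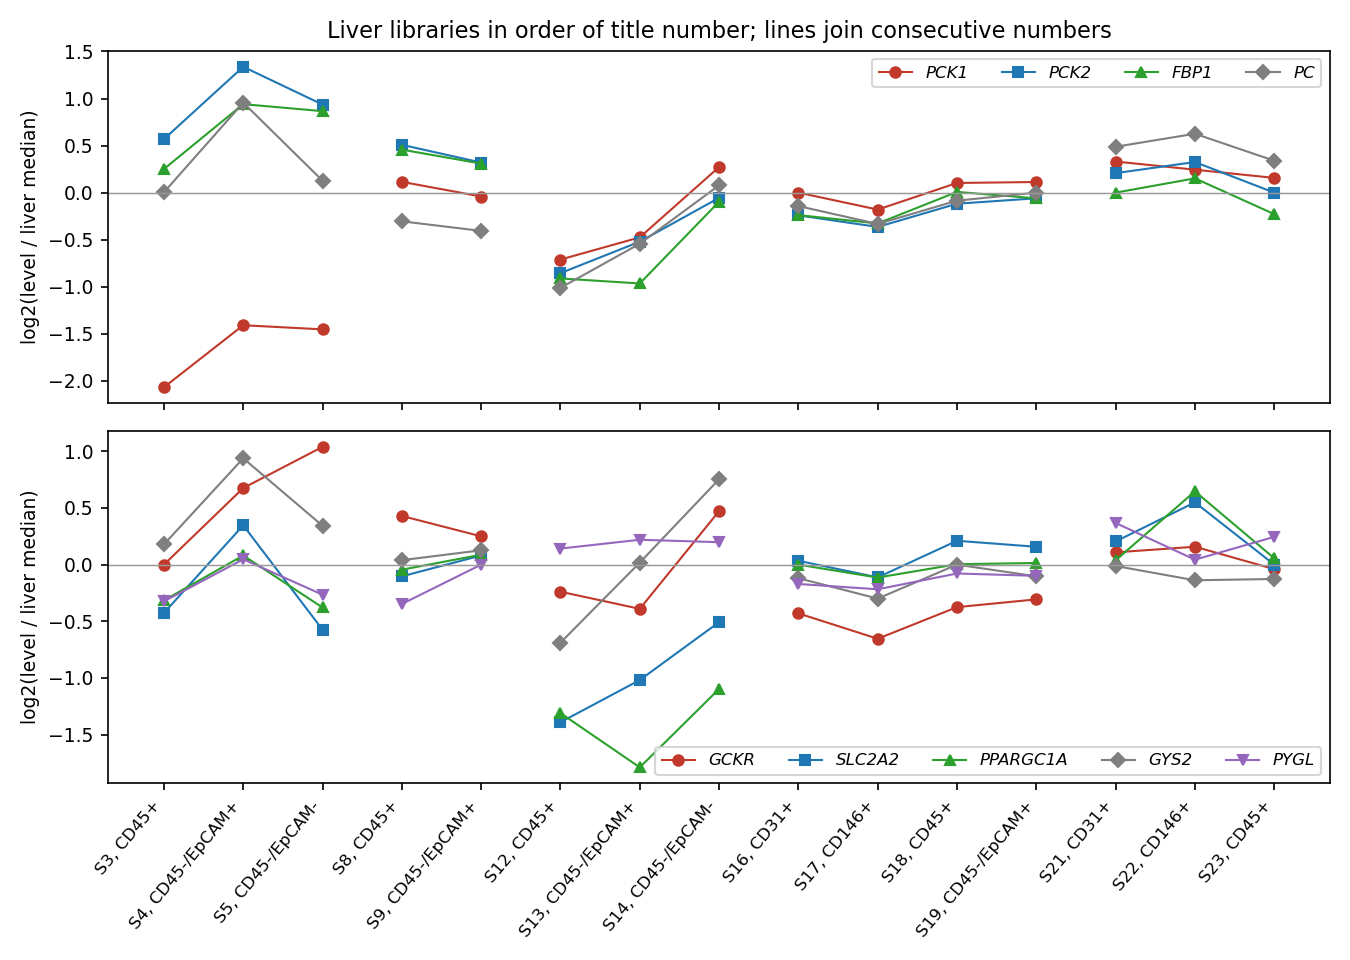
log2 of each level over the median of the 15 liver libraries, with the libraries in order of title number and lines joining consecutive numbers; the upper panel holds PCK1, PCK2, FBP1 and PC and the lower GCKR, SLC2A2, PPARGC1A, GYS2 and PYGL. In S3 to S5 PCK1 lies low, in S12 to S14 PPARGC1A and SLC2A2 lie low, and S16 to S19 are nearly level although they are 4 different sorts.

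Across the 13 deep liver libraries the 36 pairs among the 9 genes had Pearson correlations from -0.53 to 0.97 with a median of 0.37, and 10 of them were below 0. The closest pairs were PCK2 with FBP1 at 0.97 and SLC2A2 with PPARGC1A at 0.90, and the most opposed was PCK1 with PCK2 at -0.53. These libraries share runs, so the values describe these libraries and carry no p. Over all 17 deep libraries the 5 named genes most like GCKR were CHST13, NR0B2, TMPRSS6, MST1 and GLYCTK, with r from 0.994 to 0.995. Like GCKR they were low in pBTSCs, NR0B2 at 0.636 to 12.6 against 110.1 to 635 in liver. Among the members PCK2 was closest to GCKR at r = 0.990, rank 19 of 13288 named genes, and PPARGC1A the least close at 0.715. With tissue setting most of the variance, a high r here describes the contrast of pBTSCs and liver.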

How the data were processed

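RNA was extracted with Qiagen RNeasy and poly(A) libraries were made with a stranded TruSeq kit. The submitters' processing notes name STAR, Salmon and DESeq2 without versions; the genome build is not given in the sources used here. What the authors deposited is 1 table for 20 libraries, in which each value is a normalized count, here handled as a signal. Its low values lay within 0.05 of whole reads for 60.3 to 84.3%, so tests of read counts were not run. The value of 1 read was estimated per library from the low values, and 3 reads taken as the floor, for counting error only.

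From the deposited normalized counts, log2(value + 1) was taken for the 15576 genes that reached 10 normalized counts in 2 or more libraries. Linear models were fitted with limma 3.58.1 under R 4.3.3, with an intensity-trended empirical Bayes prior and Benjamini-Hochberg adjustment over all genes fitted. pBTSCs were compared with each sort in a fit of the 6 groups, and title-number ranges and sorts in an additive fit of the 15 liver libraries. Tables and figures were made with Python 3.11.15, numpy 2.4.6, pandas 2.3.3 and matplotlib 3.10.9. The fits were tested on simulated data. The members, lists and the division by title number were chosen with earlier results of these data known. Named genes are the 9 members, the 2 called genes with the largest rise and fall of each list in a comparison described, isozyme partners, and the 5 genes most like GCKR; some genes that this rule names are not reported here. Alternatives were other pseudocounts (0.1 and 10), filters, scalings, weights and fits, each library left out and, chosen after seeing the data, runs of title numbers as blocks. Groups come from the labels, and separate animals are not stated for liver, so p-values measure the spread between these libraries, which may be technical. Of 29 pairs of libraries in the same group, the closest differed by 1.67 times counting noise, and each library was counted once. Some pairs of different sorts in 1 run came as close or closer, with S18 and S19 at 1.67, whereas S3 and S5 of 1 run were at 9.29. S21 and S22, the latter with under 2000000 reads, were at 1.19. Libraries of 1 run may therefore not be independent. No sequence or coordinate is given.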

Additional observations from a re-analysis of the deposited data

Results flagged for a closer look

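By Dixon's criterion, 2 of 27 sets of a gene in a group of 4 or 5 libraries held a library apart from the others, where chance gives about 1 in 20. PPARGC1A in CD45-/EpCAM+ cells was at 186 in S13 against 649 to 683 in the other 3, a gap of 0.932 of the range. S13 had under 2000000 reads, and this value corresponds to 7.23 reads; S12 and S14, which have neighbouring numbers and deep libraries, were at 259 and 300.3. GYS2 in the same group was at 4759 in S4 against 2311 to 2711 in the other 3, a gap of 0.837 of the range. Its cause was not tested.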

How the results depend on the processing

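No paired analysis was possible because the labels give every library its own number and name no donor for the liver libraries, so replicate numbers pair nothing. The pBTSC libraries S2, S7, S11, S15 and S20 each carry the number just before a run of liver libraries. Whether they share an animal with that run is not given, and pBTSCs were compared with liver without pairing. Runs of consecutive title numbers were used as blocks in fits chosen after seeing the data. These called 0 genes between CD45-/EpCAM+ and CD45+ cells (739 at an unadjusted p under 0.05) and 0 in the interaction (199), 444 between CD45-/EpCAM- and CD45-/EpCAM+ cells and 302 between ranges, with the run as a correlated block there. In the latter KHK kept its call at -2.41 (limma adjusted p = 0.00279), and HKDC1, HK3 and PPARA lost theirs (0.0961, 0.0900 and 0.12). The number of the 9 genes called stayed within 1.5 times its value in all alternatives, 85 for pBTSCs, 20 for ranges and 52 for sorts. Of the single genes, PPARGC1A changed its call against 4 of 5 sorts: it was called without the libraries under 2000000 reads at -1.33 (CD45-/EpCAM+) and -1.29 (CD31+), with library weights at -1.17 (CD45-/EpCAM+), -1.03 (CD45+) and -1.22 (CD31+), and with only the CD31+ and pBTSC libraries at -1.28, and it lost its call against CD146+ cells without the libraries under 2000000 reads (-1.16) or with library weights (-1.46). Between the title-number ranges, where no member was called, FBP1 changed sign without S3, S4 or S8 (-0.0683 to 0.3318 over the 9 libraries left out in turn), GYS2 without S19 (-0.0936 to 0.2974) and PYGL without S23 (-0.2598 to 0.0447). Of the other pathway genes, PFKM (0.88) and SLC5A1 (0.74) lost their calls against CD45-/EpCAM+ cells without the libraries under 2000000 reads, SLC5A1 also with only the 2 groups compared, and between ranges PPARA, MDH1 and HKDC1 lost theirs without the filter on low values (limma adjusted p = 0.0571, 0.0520 and 0.0555), PPARA and MDH1 also without the prior's trend and PPARA with only the 9 CD45+ and CD45-/EpCAM+ libraries. Rescaling each library to the same total moved the median of all genes in pBTSCs against CD45-/EpCAM+ from 0.08 to 0.39. The count of all genes called moved most between ranges, from 544 to 90 without S19 and to 2034 with library weights, and between CD45-/EpCAM- and CD45-/EpCAM+ cells, from 84 to between 1 and 1185 with 1 library left out. It also moved for CD31+ cells, from 2236 to 1018 without S21 and 3805 with weights, for CD146+ cells, from 3462 to 1150 without S22, and for CD45-/EpCAM- cells, from 5698 to 3397 without S5. The cause was not tested. Levels under the floor of 77.1 normalized counts in S13, 37.7 in S15 and 156.5 in S22 are not detectable there.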
